A study of Mus musculus with 48 samples.

Results

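Gonadotropin receptors, inhibin and activin subunits and their partners were described in mouse testis, ovary, liver, kidney and hypothalamus. The genes were Fshr, Lhcgr, Prlr, Inha, Inhba, Inhbb, Fst, Amh, Amhr2 and Nr5a1, and every probe set of the array whose single gene symbol was 1 of these 10 names was taken. Of the 10 genes, 8 had such a probe set, with 10 probe sets in all among 20380 probe sets of 12393 genes. Lhcgr and Prlr were not analysed here. Inhbb and Nr5a1 had 2 probe sets each, and the other 6 genes had 1.

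The groups were testis, ovary, and both sexes of liver, of kidney and of hypothalamus, male before female. Purchased RNA of healthy tissue was polyA-selected for testis, ovary, liver and kidney, and total RNA was used for hypothalamus, although a second label calls all samples total RNA. Each group held 3 RNA samples, each measured on 2 arrays that were averaged, so n = 3 per group. Every RNA sample pooled 10 animals per the labels, which leave unsaid whether a group's 3 samples were separate pools. The p-values thus rest on a spread that may be technical. No strain or age is stated in those labels. All values are intensities of the array, which have no unit and cannot be set against those of another probe set. Over the 48 arrays, medians lay between 163.3 and 276.0, and precision is limited by the 3 RNA samples of each group.

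Follicle-stimulating hormone from the pituitary acts through its receptor Fshr on granulosa cells of the follicle and on Sertoli cells of the testis. These cells answer with inhibins, dimers of the alpha subunit Inha with a beta subunit Inhba or Inhbb, which lower the hormone's release. Dimers of beta subunits are activins, which raise it, and follistatin (Fst) binds activins and takes them out of action. Anti-Müllerian hormone (Amh) signals through its own receptor Amhr2, and the nuclear receptor Nr5a1 switches on genes of steroid synthesis and of gonad development.

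The stretch before the transcript start is shown for Fshr and Inhbb, the receptor and the beta subunit whose levels are described in most detail below, and a shorter stretch for Amhr2, which differed between the gonads in the opposite direction to the other genes. The windows are 250 bases long, from RefSeq on assembly GRCm38.p6, each on the strand of its gene, and hold chr17:89200676-89200925 on the minus strand for Fshr and chr1:119422249-119422498 on the minus strand for Inhbb. The Amhr2 stretch covers chr15:102445128-102445150 on the plus strand. Capitals mark a match to a motif.
Fshr: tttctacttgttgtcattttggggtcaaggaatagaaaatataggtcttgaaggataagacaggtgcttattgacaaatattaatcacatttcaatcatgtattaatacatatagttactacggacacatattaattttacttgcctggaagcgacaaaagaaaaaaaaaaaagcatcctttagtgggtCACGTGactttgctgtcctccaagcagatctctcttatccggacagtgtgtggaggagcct
Inhbb: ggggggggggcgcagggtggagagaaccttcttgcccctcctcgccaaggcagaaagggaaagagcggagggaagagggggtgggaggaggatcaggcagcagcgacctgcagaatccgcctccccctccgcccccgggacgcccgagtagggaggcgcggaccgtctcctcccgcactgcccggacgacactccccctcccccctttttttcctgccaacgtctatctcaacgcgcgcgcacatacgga
Amhr2: cttcttccAAGGTCAgtaggggt

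Of the 8 genes, 5 had a window in the table, namely Fshr, Inha, Inhba, Inhbb and Amhr2. The windows of Inha, Inhba and Amhr2 lay inside the annotated extent of their own gene, at the start of a shorter transcript. Both strands were searched for the NR5A1 motifs AAGGTCA and AAGGCCA, the cAMP response element TGACGTCA and its first 5 letters TGACG, the GATA motif AGATAA and the E-box CACGTG. Every match of TGACGTCA is also a match of TGACG. Fshr held CACGTG from base -61 to base -56 before the start, a motif found in 6.02% of 32851 windows of this length. Amhr2 held AAGGTCA from base -231 to base -225, found in 4.08% of them. The windows of Inha, Inhba and Inhbb held no match of the 6 motifs. Over all windows, AAGGCCA was found in 5.24%, TGACGTCA in 1.55%, TGACG in 17.8% and AGATAA in 9.99%.

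The tissue labels were checked against markers before the comparisons, and the sex labels of liver, kidney and hypothalamus were not. The summed intensity of 4 spermatid markers lay between 58145 and 73816 in testis and between 165 and 297 in ovary, and that of 6 oocyte markers between 824 and 967 in testis and between 4109 and 5806 in ovary. Liver, kidney and hypothalamus each had the highest sums of their own marker lists. On the hypothalamus list, Hcrt, Oxt, Avp and Trh were highest in hypothalamus. Pomc went the other way, with a mean of 642 in testis and of 331 in both male and female hypothalamus. Ovary also carried a sum of 9489 to 12116 for the 2 markers of oviduct and surface epithelium, Ovgp1 and Upk3b, against 229 to 408 in testis, and 18796 to 25648 for the luteal markers Akr1c18 and Sfrp4, against 386 to 705 in testis. The granulosa marker Hsd17b1, the 1 measured of 3 listed, had 27.2, 10.5 and 16.2 in testis and 2348, 1852 and 2505 in ovary. Of the Sertoli markers, Rhox5 and Cldn11 were bright in testis, Dhh averaged 402 in testis and 379 in ovary, and Sox9 lay under the 40th percentile of the array in all 6 gonad samples. Testis sample 3 stood apart from the other 2 testis samples. Its sum over the theca and Leydig markers Cyp17a1 and Hsd17b3 was 10065, against 5451 and 4912 in testis samples 1 and 2. Its sum over the spermatid markers was 58145, against 73816 and 73228. Its sum over 4 Sertoli markers was 2152, against 1823 and 1794, mostly through Cldn11 at 797 against 489 and 591. Sox9 was also highest there, while Rhox5 (815 against 818 and 799) and Dhh (435 against 438 and 333) were not. The part of these cell types in the results below was not tested.

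Testis was compared with ovary to ask how the gene set differs between the gonads. Of the 8 genes, Amhr2 alone was higher in testis and Fshr, Inha, Inhba, Inhbb, Fst, Amh and Nr5a1 were lower, at an adjusted p under 0.05 (limma with Benjamini-Hochberg adjustment over all probe sets tested). The array as a whole differed widely between the gonads, with 70.5% of 14924 probe sets called, 24.9% higher and 45.6% lower in testis, and with 74.5% not overlapping between the groups, so a call on its own says little of these genes. Under quantile normalization 31.3% were called higher and 38.2% lower. The median log2 difference was -1.99 over the 8 genes, Amh being tested through ovary alone, and -0.35 over all probe sets. Quantile normalization moved the median of all probe sets to -0.12. Relative to the median of all probe sets, the genes lay between -3.25 for Amh and 1.24 for Amhr2. In bulk RNA, fewer cells of a type and less RNA per cell cannot be told apart.

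**Figure D1:**
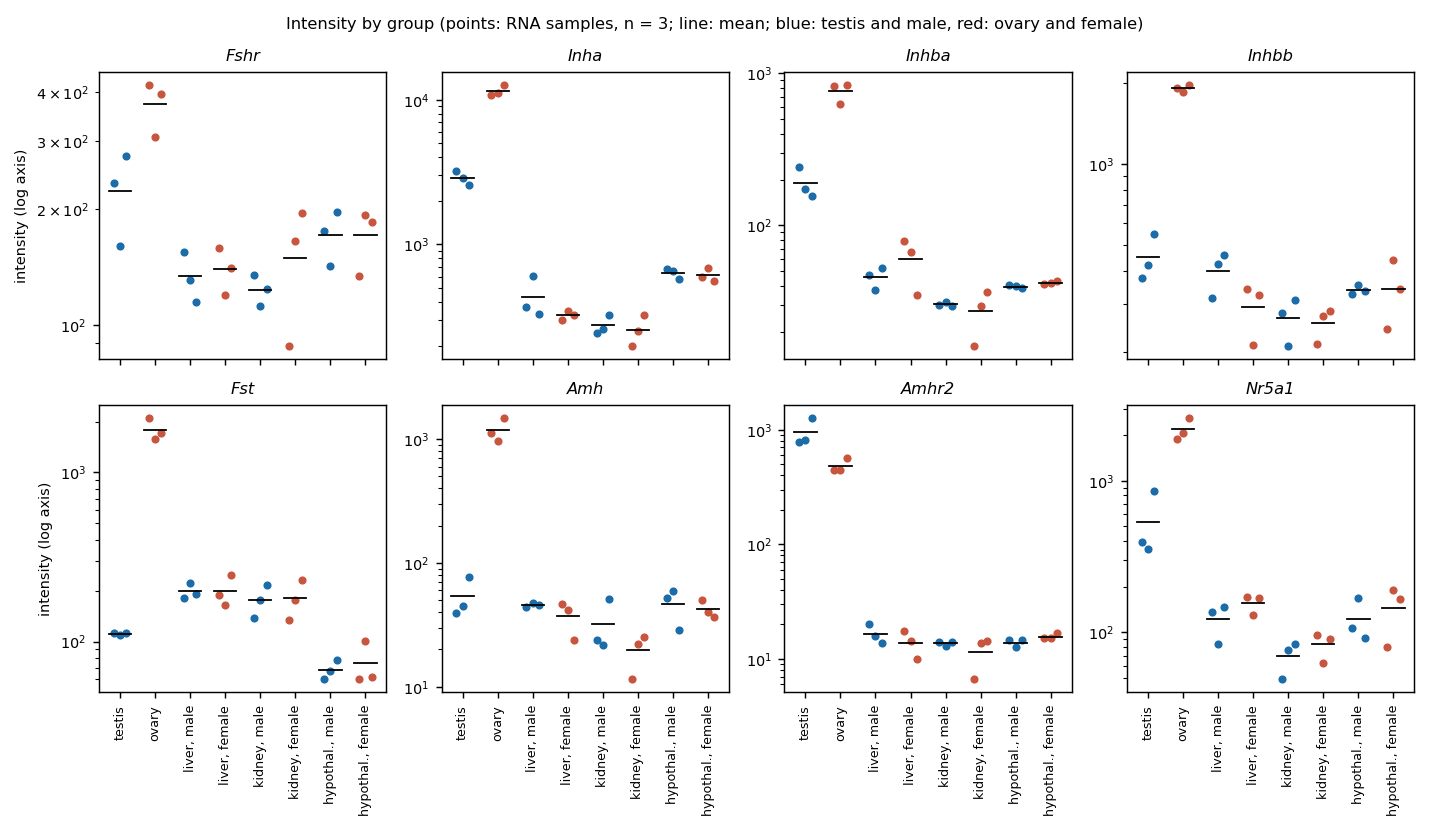
Intensity of the 8 genes (y axes, log scale, no unit, a separate range for each gene) in the 8 groups, with a point for each RNA sample and a line at the mean of 3. Inhbb and Nr5a1 are shown by the probe set that stands for the gene, 1426859_at and 1418315_at. Ovary was the highest group for 7 genes and testis for Amhr2.

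The receptor of follicle-stimulating hormone was lower in testis than in ovary, by a margin that some settings did not keep. Fshr (probe set 1450810_at) had 233, 160 and 274 in testis and 418, 307 and 395 in ovary, so every ovary sample lay above every testis sample. The log2 difference of testis minus ovary was -0.65 ± 0.20 (SE; limma adjusted p = 0.016), and the mean intensity in ovary was 1.68 times that in testis. Relative to the median of all probe sets the difference was -0.31, and 40% of the probe sets tested lay as low or lower. The call was lost under quantile normalization (log2 difference -0.28, limma adjusted p = 0.238), without testis sample 2 (-0.47, adjusted p = 0.0545), without ovary sample 1 (-0.57, adjusted p = 0.063) and without ovary sample 3 (-0.61, adjusted p = 0.0586).

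The inhibin alpha subunit was lower in testis than in ovary. Inha (1422728_at) had 3221, 2892 and 2572 in testis and 10865, 11186 and 12645 in ovary, with no overlap. Its log2 difference of testis minus ovary was -1.98 ± 0.16 (SE; limma adjusted p = 3.77e-06), and the ovary mean was 3.99 times the testis mean. Both beta subunits, which decide between inhibin A and B, were lower in testis as well. Inhba (1422053_at) had 242, 174 and 157 in testis and 830, 630 and 837 in ovary, and its difference was -1.77 ± 0.19 (SE; limma adjusted p = 2.58e-05). Testis sample 1 was the highest of the testis samples for Inha and Inhba, and no testis value reached the lowest ovary value.

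Inhbb was measured by 2 probe sets that differed in size of effect. Probe set 1426858_at had 512, 570 and 1023 in testis and 5348, 4023 and 5484 in ovary, a log2 difference of -2.78 ± 0.25 (SE; limma adjusted p = 9.24e-06). Probe set 1426859_at, which had the higher mean log2 value over all 24 RNA samples and stands for the gene in counts, had 376, 422 and 549 in testis and 1916, 1852 and 1963 in ovary, a difference of -2.0 ± 0.17 (SE; limma adjusted p = 5.9e-06). Both put every testis sample below every ovary sample, and in both testis sample 3 was the highest of the testis samples. Without testis sample 3 the differences were -3.07 and -2.14. Outside the gonads the first probe set lay between 102 and 320 and the second between 210 and 458.

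**Figure D2:**
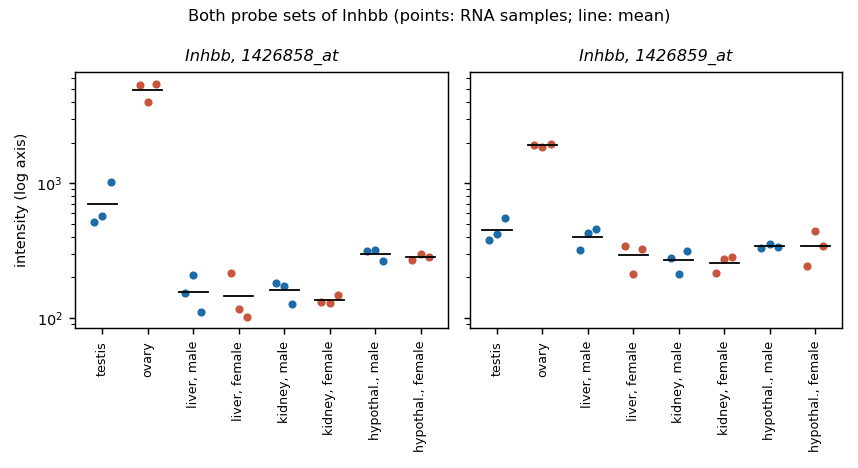
Intensity of both Inhbb probe sets (y axis, log scale, no unit) in the 8 groups, with a point for each RNA sample and a line at the mean of 3. Ovary stood above all groups in both panels, while testis samples of 376 to 549 overlapped male liver at 318 to 458 and 1 sample of female hypothalamus for 1426859_at and did not overlap any other tissue for 1426858_at.

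Follistatin, the activin-binding protein, and anti-Müllerian hormone were lower in testis by wide margins whose size depends on dim testis values. Fst (1421365_at) had 113, 109 and 113 in testis and 2097, 1583 and 1702 in ovary, and the ovary mean was 16.1 times the testis mean. The log2 difference was -3.52 ± 0.16 (SE; limma adjusted p = 1.42e-07), with 0.737% of all probe sets as low or lower. In testis, 1 of 3 samples passed the filter on dim probe sets, a level above the array's 40th percentile, so Fst was tested through its level in ovary. Amh (1450573_at) had 39.5, 44.6 and 76.6 in testis and 1116, 958 and 1480 in ovary, and the ovary mean was 22.1 times the testis mean. Its log2 difference was -3.59 ± 0.21 (SE; limma adjusted p = 5.86e-07), with 0.663% of all probe sets as low or lower. No testis sample passed the filter for Amh, so it was tested through ovary alone and had to be lower in testis, where its values overlapped those of male liver, kidney and hypothalamus. With 4 times the 48.1 added to each intensity before taking log2, the differences were -2.47 for Amh and -2.70 for Fst, against -2.55 for Inhbb by 1426858_at.

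The receptor of anti-Müllerian hormone ran the other way. Amhr2 (1427989_at) had 788, 812 and 1265 in testis and 443, 443 and 568 in ovary, and all testis samples lay above all ovary samples. Its log2 difference of testis minus ovary was 0.89 ± 0.21 (SE; limma adjusted p = 0.00364), and the testis mean was 1.97 times the ovary mean. Among all probe sets 17.5% were as high or higher. Testis sample 3, with the highest sum of the theca and Leydig markers, was also the highest for Amhr2. Without that sample the difference was 0.68 (limma adjusted p = 0.00264).

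Nr5a1, the nuclear receptor of steroid-making cells, was lower in testis. Its probe set 1418315_at had 392, 353 and 856 in testis and 1874, 2074 and 2595 in ovary, and the highest testis value lay well below the lowest ovary value. The log2 difference was -2.03 ± 0.30 (SE; limma adjusted p = 0.00019), and -2.40 without testis sample 3 (limma adjusted p = 9.81e-07). This SE was the largest of the 8 genes, with testis sample 3 more than the other testis samples together. The other probe set of Nr5a1, 1421730_at, lay between 2.85 and 15 over all 24 RNA samples and between 8.25 and 10.2 in ovary, and was not tested in any comparison.

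**Figure D3:**
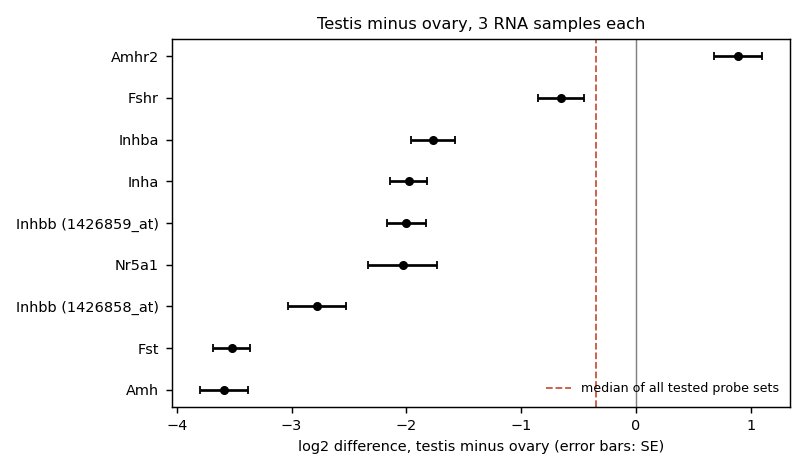
Log2 difference of testis minus ovary (x axis; bars, SE of the limma fit on 3 RNA samples each) for the 9 tested probe sets of the 8 genes. The dashed line marks the median of all probe sets at -0.35; Amhr2 at 0.89 lies to its right and Fshr at -0.65 is the closest to it on the left.

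The ovary was next set against the other female tissues. All 8 genes were higher in ovary than in female liver, kidney and hypothalamus, where 46.4%, 37.3% and 36.8% of all probe sets were called higher and 67.6%, 56.5% and 70.7% were called in either direction. Inhba, Amh and Amhr2 passed the filter through ovary alone in all 3 comparisons, Nr5a1 through ovary alone against kidney and Fst against hypothalamus. The direction of these genes there is no result of its own. Inha was 4.98 ± 0.12 above female liver, 5.26 ± 0.17 above female kidney and 4.15 ± 0.12 above female hypothalamus on the log2 scale (SE; highest limma adjusted p of the 3, 1.9e-08). Relative to the median of all probe sets those differences were 4.68, 5.04 and 4.12, and 0.0625% of the probe sets tested were as high or higher against kidney. Fshr had the smallest differences of the 8 genes, 1.17 ± 0.15 above liver, 1.13 ± 0.22 above kidney and 1.02 ± 0.14 above hypothalamus (SE; highest limma adjusted p, 0.00216; 0.77, 0.73 and 0.66 with 4 times the 48.1), with 15.8%, 11.1% and 15.1% of all probe sets as high or higher. Its ovary samples, the lowest at 307, lay above all 9 female samples of other tissues, the highest at 195.

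Fst in ovary was 2.89 ± 0.16, 3.02 ± 0.19 and 3.97 ± 0.17 above female liver, kidney and hypothalamus (log2, SE), and Nr5a1 was 3.46 ± 0.16, 4.14 ± 0.17 and 3.62 ± 0.23 above them. The lowest ovary value was 1583 for Fst and 1874 for Nr5a1, against a highest of 249 and 189 over the 18 samples of liver, kidney and hypothalamus. For Amh, ovary lay 3.83 ± 0.18, 4.17 ± 0.18 and 3.77 ± 0.15 above liver, kidney and hypothalamus, and for Amhr2 3.09 ± 0.13, 3.15 ± 0.15 and 3.06 ± 0.12 above them. Amhr2 was between 6.65 and 20.3 in all 18 samples outside the gonads, below that 48.1, so the size of its differences depends on that number. With 4 and with 0.25 times 48.1, Amhr2 lay 1.71 and 4.26 above liver, 1.72 and 4.40 above kidney and 1.70 and 4.17 above hypothalamus, and Amh lay 2.56 and 4.61, 2.68 and 5.25, and 2.54 and 4.52 above them. For Inhba the 3 differences were 2.94 ± 0.18, 3.43 ± 0.17 and 3.16 ± 0.13, and 1.92, 2.11 and 2.02 with 4 times the added number. Inhbb differed by 2.55 ± 0.17, 2.69 ± 0.14 and 2.39 ± 0.18 by probe set 1426859_at and by 4.73 ± 0.22, 4.76 ± 0.16 and 3.91 ± 0.14 by probe set 1426858_at. The label that separates the tissues gives total RNA for hypothalamus and polyA-selected RNA for the others, although a second label calls all samples total RNA. Preparation and tissue thus cannot be told apart wherever hypothalamus is set against another tissue, for ovary, testis, liver or kidney.

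The testis was set against the other male tissues in the same way. Against male liver, 5 of 7 genes tested were higher in testis and 1 was lower, where 66.5% of all probe sets were called, 32.6% higher and 34% lower. Against male kidney 6 were higher and 1 lower of 7, where 66.2% were called, 29.8% higher and 36.4% lower, and against male hypothalamus 4 were higher and 0 lower of 6, where 74.4% were called, 28.9% higher and 45.4% lower. Amh was not tested in these, and Inhba and Amhr2 passed the filter through testis alone in all 3, as Nr5a1 did against kidney and hypothalamus. The direction of these genes there is no result of its own. Without them, the genes called higher in testis were Inha, Fshr and Nr5a1 against liver, Inha, Fshr and Inhbb against kidney, and Inha against hypothalamus. The count against kidney rests on male kidney sample 2, without which 4 genes were called, and was 4 with the first array of each sample alone.

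Amhr2 was 3.92 ± 0.21, 3.99 ± 0.21 and 3.98 ± 0.19 above male liver, kidney and hypothalamus (log2, SE; highest limma adjusted p, 1.77e-07). With 4 times the number added before log2 these were 2.43, 2.45 and 2.45. Inha was 2.70 ± 0.21, 3.18 ± 0.18 and 2.11 ± 0.15 above them (2.36, 2.72 and 1.90 with 4 times that number), and its lowest testis sample, 2572, lay far above the highest of 9 male samples of other tissues, 674. Inhba was 1.34 ± 0.19, 1.59 ± 0.19 and 1.43 ± 0.16 above them, and Nr5a1 1.73 ± 0.32, 2.29 ± 0.30 and 1.76 ± 0.32. Of all probe sets tested, 18.2%, 13.3% and 14.2% were as high as Inhba or higher, and 13.5%, 8.05% and 11.2% for Nr5a1. These shares were 6.81%, 4.28% and 8.57% for Inha and 3.04%, 2.59% and 2.39% for Amhr2. With 4 times the added number Inhba differed by 0.68, 0.78 and 0.72, and Nr5a1 by 1.16, 1.42 and 1.16. Without testis sample 3 the Nr5a1 differences were 1.36, 1.92 and 1.39.

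Inhbb divided by probe set here. Probe set 1426858_at was 1.84 ± 0.28, 1.81 ± 0.26 and 1.05 ± 0.24 above male liver, kidney and hypothalamus (log2, SE), and all 3 differences passed the threshold (limma adjusted p = 0.000199, 0.000151 and 0.00323). Probe set 1426859_at differed by 0.65 ± 0.21 from kidney (limma adjusted p = 0.0183), by 0.17 ± 0.21 from liver (adjusted p = 0.51) and by 0.34 ± 0.16 from hypothalamus (adjusted p = 0.0863). The kidney call was lost with the first arrays alone (0.58, adjusted p = 0.0821) and without male kidney sample 2 (0.51, adjusted p = 0.0846). The hypothalamus difference passed under quantile normalization (0.70, adjusted p = 0.00202), with the second arrays alone (0.51, adjusted p = 0.0206) and without testis sample 1 (0.45, adjusted p = 0.0362). By that probe set the testis values of 376 to 549 overlapped the male liver values of 318 to 458.

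Fshr was 0.56 ± 0.21 higher in testis than in male liver (log2, SE; limma adjusted p = 0.0388) and 0.68 ± 0.21 higher than in male kidney (adjusted p = 0.0151). As high as Fshr or higher were 32.2% of all probe sets tested against liver and 26.4% against kidney. Against male hypothalamus, with values of 142 to 196, its difference was 0.31 ± 0.19 and did not pass (adjusted p = 0.179), though it did under quantile normalization (0.73, adjusted p = 0.00683) and without testis sample 2 (0.49, adjusted p = 0.0331). The liver call was lost in 6 of the alternative settings, with differences of 0.34 to 0.55 and adjusted p from 0.0598 to 0.132 there. The kidney call was lost with the first arrays alone (0.69, adjusted p = 0.0796) and without male kidney sample 2 (0.60, adjusted p = 0.0642). Fst was the gene lower in testis, at -0.63 ± 0.17 against male liver (limma adjusted p = 0.00792) and -0.48 ± 0.18 against male kidney (adjusted p = 0.0435). Of all probe sets tested, 31.3% and 37.9% lay as low or lower. Against male hypothalamus Fst was not tested, and its mean was 111 in testis and 68.2 in hypothalamus. All 3 testis values of Fst, 109 to 113, lay below the liver values of 182 to 223 and the kidney values of 138 to 216. The Fst call against kidney was lost in 9 of the alternative settings, with differences of -0.49 to -0.27 and adjusted p from 0.0501 to 0.154.

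**Figure D4:**
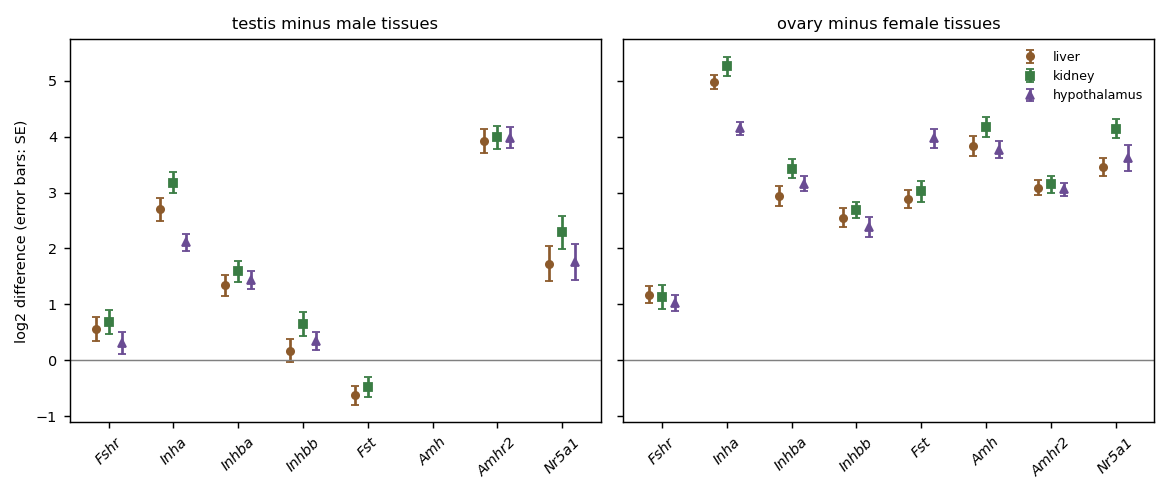
Log2 difference of testis minus male liver, kidney and hypothalamus (left) and of ovary minus the same female tissues (right), for the probe set that stands for each gene (points; bars, SE of the limma fit; genes not tested have no point). Amhr2 lies near 4 in the left panel, Fst lies below 0 there, and all genes lie above 0 in the right panel.

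Outside the gonads the order of the groups was less clear. For Inha, male hypothalamus averaged 635 ± 48.4 and female hypothalamus 612 ± 62.5 (SD, n = 3), and they overlapped each other. Male liver followed at 434 ± 148 and overlapped female hypothalamus. The SD of male liver came from its sample 2 at 604, whose 2 arrays differed by 1.3 on the log2 scale. Female liver averaged 323 ± 22.4, male kidney 277 ± 42.6 and female kidney 258 ± 63.2, and each neighbour in this order overlapped the next. Fst was brighter in liver, at 164 to 249, and kidney, at 134 to 232, than in hypothalamus, at 59.9 to 101, and it was the 1 gene for which testis came after liver and kidney. For Inhbb, probe set 1426858_at put hypothalamus, at 266 to 320, above liver and kidney, at 102 to 215, an order that the other probe set did not give.

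Male and female samples of the same tissue were compared in liver, kidney and hypothalamus, the question in the title of the series. Of these genes, 5 were tested in liver, 4 in kidney and 3 in hypothalamus, and 0 were called in each by limma, with 0 below 0.05 without adjustment and a lowest adjusted p of 1. In these comparisons 0.0508%, 0.232% and 0.0509% of all probe sets were called. In liver Inha had a difference of male minus female of 0.30 ± 0.18 (log2, SE), Inhbb of 0.38 ± 0.21, Nr5a1 of -0.30 ± 0.20, Fshr of -0.04 ± 0.15 and Fst of 0.00 ± 0.16, and male and female values overlapped for each. In kidney the differences were 0.10 ± 0.19 for Inha, 0.04 ± 0.18 for Inhbb, -0.21 ± 0.23 for Fshr and -0.02 ± 0.20 for Fst. In hypothalamus they were 0.06 ± 0.10 for Inha, 0.05 ± 0.18 for Inhbb and 0.06 ± 0.13 for Fshr. An SE of 0.10 to 0.23 leaves room for modest differences that 3 samples a sex could not show. The difference between tissues in male minus female was tested for 5 genes in each of 3 pairs of tissues, and 0 were called (limma; 0 also at an unadjusted p under 0.05), where 0.237% of all probe sets were called for liver and kidney, 0.0178% for liver and hypothalamus and 0.207% for kidney and hypothalamus.

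Over the 24 RNA samples the probe sets most like each gene were found by Pearson correlation of log2 values. These samples share tissues and arrays, and the gonads dominate the spread, so the values are a description. Tle6 was the closest to Inha (r = 0.978), to Inhba (0.976) and to Nr5a1 (0.964). After it came Ckap4 (0.968) and the Inhbb probe set 1426858_at (0.963) for Inha, Timp1 (0.962) and Gata4 (0.961) for Inhba, and Inhba (0.957) and Htra3 (0.948) for Nr5a1. Fshr was closest to the oocyte growth factor Gdf9 (0.917), to Pold1 (0.907) and to Kctd14 (0.901). For Inhbb the closest were Bnipl (0.967), Amh (0.957) and Dmkn (0.949), for Amh Prap1 (0.989), Thbs4 (0.984) and Clca1 (0.982), and for Fst Krt19 (0.980), Tpm1 (0.975) and Dpt (0.964). Amhr2 was closest to Bub1b (0.994), Serpina5 (0.992) and Cdk5rap2 (0.990). Among the 8 genes themselves, r was 0.958 between Inha and Inhba, 0.957 between Inhba and Nr5a1 and 0.444 between Fst and Amhr2, the lowest of the 28 pairs.

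Other genes of the same pathway were read in testis against ovary, each list by its counts beside the 24.9% higher and 45.6% lower over all probe sets. A gene above the filter in no sample of one gonad was tested through the other gonad alone. Its direction is then no result of its own, so counts are also given without such genes. Of the other ligands of the TGF-beta family, 8 of 16 listed were tested and 8 were lower in testis, with a median log2 difference of -1.68. Bmp15, Bmp6 and Gdf10 were tested through ovary alone, and without them 5 of 5 were lower, with a median of -1.20. Under quantile normalization 6 of the 8 tested were lower and 0 higher, with a median of -1.37. The oocyte ligand Gdf9 averaged 392 ± 106 in testis and 1530 ± 258 in ovary, Bmp6 60.8 ± 14.2 in testis and 385 ± 40.8 in ovary, Gdf10 79.5 ± 17.9 in testis and 411 ± 82.0 in ovary, and Tgfb3 187 ± 46.1 in testis and 772 ± 166 in ovary (SD, n = 3). Of 20 receptors and SMADs, 16 were tested, 14 were lower, 1 was higher and the median was -1.28. Without Bmpr2, tested through ovary alone, 13 of 15 were lower and the median was -1.26. Under quantile normalization 13 of the 16 were lower and 1 higher, with a median of -0.92. Tgfbr2, the type II receptor for TGF-beta, differed by -2.76 ± 0.19 (log2, SE), the common mediator Smad4 by -2.11 ± 0.18, the inhibitory Smad7 by -1.98 ± 0.17 and the receptor Bmpr1a by -1.87 ± 0.15. Smad6, an inhibitor of BMP signals, was the 1 higher, by 1.37 ± 0.21. Of 12 other binding proteins 8 were tested, 4 were lower and 1 was higher, with a median of -0.79. Without Ltbp1, tested through ovary alone, and Fstl3, tested through testis alone, 3 of 6 were lower and 0 higher. Under quantile normalization 4 of the 8 were lower and 2 higher, with a median of -0.43. Fstl1 differed by -2.72 ± 0.17, Ltbp1 by -3.08 ± 0.22, the protease Htra1 by -3.68 ± 0.31 and the BMP antagonist Grem1 by -1.40 ± 0.23, and Fstl3, which like Fst binds activins, was higher by 0.67 ± 0.16.

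Steroid synthesis, the field of Nr5a1, had 16 genes listed, of which 10 had a probe set. It was lower in testis for 8 of 10 genes tested and higher for 1, with a median of -2.90. The theca and Leydig marker Cyp17a1, an enzyme of this synthesis, averaged 5938 in testis and 4184 in ovary and was not called. Hsd17b1 and Akr1c18 were tested through ovary alone and Hsd17b3 through testis alone, and without them 6 of 7 were lower, with a median of -2.85. Akr1c18, which breaks down progesterone, differed by -6.55 ± 0.28 (log2, SE), Hsd17b1, the granulosa enzyme of oestradiol synthesis, by -5.11 ± 0.18, Hsd17b7 by -3.56 ± 0.17 and the lipoprotein receptor Scarb1 by -3.02 ± 0.21. Hsd17b3, the enzyme of testosterone synthesis in Leydig cells, was the 1 higher, by 3.28 ± 0.26, with 1330 in testis sample 3 against 653 and 633 in testis samples 1 and 2. Of 18 transcription factors of the gonads, 10 were tested, 8 were lower and 2 higher, with a median of -1.80. Nr5a2, Esr2, Zfpm2 and Nr2f2 were tested through ovary alone and Dmrt1 through testis alone, and of the other 5, 4 were lower and 1 higher, with a median of -1.79. Nr5a2, the close relative of Nr5a1, differed by -4.42 ± 0.21, the oestrogen receptor Esr2 by -3.27 ± 0.17, Nr2f2 by -2.70 ± 0.14 and Tcf21 by -2.18 ± 0.15. The 2 higher were Nr0b1, a repressor of Nr5a1, by 1.48 ± 0.14, and Dmrt1, a factor of Sertoli and germ cells, by 2.16 ± 0.29.

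Of the follicle growth and granulosa genes, 13 of 15 listed were tested and 13 were lower in testis, with a median of -2.34. The list was chosen for the ovarian follicle, so its direction is no result of its own. Igfbp5, Esr2, Nppc and Hsd17b1 were tested through ovary alone, and without them 9 of 9 were lower, with a median of -2.12. They included the growth factor binding protein Igfbp5 at -4.58 ± 0.14 (log2, SE), Grb14 at -3.50 ± 0.20, and Hsd17b1 and Esr2 as above. Of 16 genes that luteinising hormone induces at ovulation, 7 were tested, 5 were lower and 1 higher, with a median of -1.95. Without Adamts1, tested through ovary alone, and Sult1e1, tested through testis alone, 4 of 5 were lower and 0 higher. Under quantile normalization 4 of the 7 were lower and 2 higher, with a median of -1.79. Cebpb differed by -3.21 ± 0.21, the regulator of G protein signals Rgs2 by -3.08 ± 0.15, Adamts1 by -2.62 ± 0.15 and Egr1 by -1.95 ± 0.15, and the oestrogen sulphotransferase Sult1e1 was higher in testis by 2.52 ± 0.24. In cAMP signalling, the arm by which Fshr acts, 13 of 18 were tested, 9 were lower and 2 higher, with a median of -0.78, and each of the 13 was above the filter in both gonads. The kinase subunit Prkacb differed by -1.77 ± 0.14, the adenylyl cyclases Adcy9 and Adcy6 by -1.68 ± 0.15 and -1.73 ± 0.21, and the phosphodiesterase Pde8a by 1.88 ± 0.18. Under quantile normalization 7 of these 13 were called, 6 lower and 1 higher. Smad6, Fstl3, Hsd17b3, Nr0b1, Dmrt1 and Sult1e1 lay outside the rule for naming and were named after their values were seen.

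Most genes of the gonadotropin axis in the brain and pituitary did not pass the filter on dim probe sets in the gonads. Of 14 listed, 2 were tested in testis against ovary. Pomc was higher in testis, at 642 ± 50.9 against 200 ± 27.7 in ovary (SD, n = 3; log2 difference 1.48 ± 0.16, limma adjusted p = 2.32e-05). Lhb, the beta subunit of luteinising hormone, averaged 281 ± 51.9 in testis and 221 ± 7.55 in ovary and did not pass (adjusted p = 0.147). It passed under quantile normalization (log2 difference 0.65, adjusted p = 0.00506) and without testis sample 3 (0.41, adjusted p = 0.0198). Of the 14 genes of prolactin and growth hormone signalling, 12 were tested in the gonads, 11 were lower in testis and 0 higher, with a median of -1.72. Of those, 3 were tested through ovary alone, and of the other 9, 8 were lower, with a median of -1.14. In liver, where these hormones act differently in the sexes, 14 were tested in male against female samples and 0 were called by limma, with 0 at an unadjusted p under 0.05. Over all 13792 probe sets tested there, 0.0508% were called and 270 had an unadjusted p under 0.05, so these counts say little of the list.

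**Figure D5:**
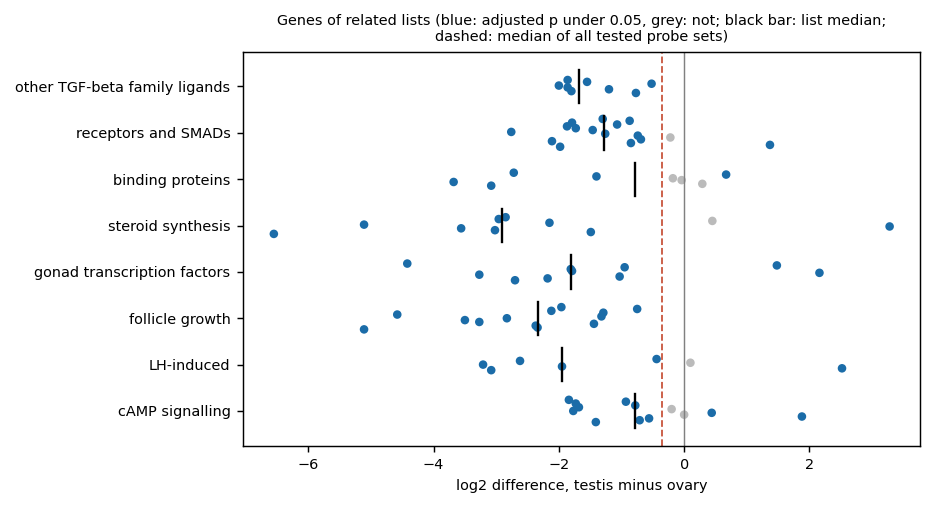
Log2 difference of testis minus ovary (x axis) for the tested genes of 8 lists of related genes (rows), 1 point per gene, in blue where the adjusted p was under 0.05 and in grey where it was not, genes tested through 1 gonad alone included. Black bars mark the list medians, from -2.90 for steroid synthesis to -0.78 for cAMP signalling, and the dashed line the median of all probe sets at -0.35.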

How the data were processed

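RNA was measured on 48 Affymetrix arrays, in 8 groups of 3 RNA samples with 2 arrays each, grouped by the titles. The deposited values are 1 linear intensity for each probe set on each array, and the software behind them is not given in the sources used here. Their 2% trimmed mean lay between 500.11 and 500.23. Of 22690 probe sets, 64 controls were left out, and of the remaining 22626, 20380 had 1 gene symbol, 691 several and 1555 none. Genes were named only from the platform annotation, with chromosomes and sequences from RefSeq GRCm38.p6.

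Scaling set the same trimmed mean on every array. From the deposited intensity, log2 values were taken after adding 48.1 as pseudocount (the 20th percentile over all scaled intensities), which shrinks the differences of dim genes, and the 2 arrays of a sample were averaged (their correlation lay between 0.9656 and 0.9899, and 0 pairs were identical). Tests were limited to probe sets that passed an array's 40th percentile in 3 or more RNA samples. Pairs of groups were fitted by lmFit and eBayes of limma 3.58.1 (R 4.3.3) on their 6 RNA samples, with Benjamini-Hochberg adjustment over all probe sets and a threshold of 0.05. Means carry the SD, and log2 differences the SE. The fit was tested on simulated data. Differences between tissues were interaction terms over liver, kidney and hypothalamus. The probe set with the highest mean log2 value stood for a gene.

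The genes and lists were chosen with earlier results of these data known. From each list up to 4 genes with the lowest p in testis minus ovary were named, and for each gene the 3 most correlated probe sets. For the prolactin and growth hormone list, whose genes were to be named by male against female liver, only counts are given. Alternatives were quantile normalization, 0.25 and 4 times the pseudocount, no filter, either array alone, an intensity trend, 1 fit of all groups, the sample number as a block, the probe set with the lowest p, and leaving out each sample with the tested probe sets kept. Deviations of male and female samples of 1 number correlated at 0.102 to 0.627 in liver, kidney and hypothalamus. In the gonads the values were 0.042, 0.146 and 0.043. Between unlike numbers the highest correlation was 0.287 in liver, -0.118 in kidney and 0.089 in hypothalamus. Liver number 2, at 0.139, lay below the value for unlike numbers, and hypothalamus number 2, at 0.102, lay near it. A pairing of the sexes by number was thus clear in kidney alone, and the titles state none. Python 3.11.15 with matplotlib 3.10.9 drew the figures.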

Additional observations from a re-analysis of the deposited data

How the results depend on the processing

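Under every alternative run, the count of genes called was 0 in male against female samples and in its differences between tissues, and 8 in ovary against each female tissue, where every gene was called and little room was left to move. Of the other counts, testis minus male kidney came to 4 in place of 7 for the first arrays alone and without male kidney sample 2. Leaving out 1 sample gave 7 to 8 calls for testis minus ovary, 5 to 6 for testis minus male liver, 4 to 7 for kidney and 4 to 5 for hypothalamus. Of the single gene values, 1013 kept direction and side of the threshold, 23 lost the call, 5 gained it and 23 changed sign. Of those sign changes, 22 were in male against female samples, none of which was called. The first arrays alone gave 0.07 for Fshr and -0.03 for Fst in liver, 0.00 for Inhbb and 0.03 for Fst in kidney, -0.27 for Fshr, -0.06 for Inha and -0.12 for Inhbb in hypothalamus, and -0.11 for Inhbb (1426859_at) in testis minus male liver, and 4 times the pseudocount gave 0.00 for Fst in liver. Leaving out 1 sample gave -0.13 to 0.03 for Fshr and -0.10 to 0.14 for Fst in liver, -0.05 to 0.25 for Inha, -0.06 to 0.18 for Inhbb and -0.17 to 0.13 for Fst in kidney, and -0.04 to 0.16 for Fshr and -0.17 to 0.24 for Inhbb in hypothalamus. The cause was not tested.

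With the sample number as a replicate block, 0 of these genes were called in male against female liver, kidney and hypothalamus, as without it, while the calls over all probe sets came to 11, 144 and 9, against 7, 32 and 7. The block changed no other count of these genes. Quantile normalization moved the share of higher calls over all probe sets in ovary minus female liver to 57.0% in place of 68.6%, and the median of all probe sets to -0.12 in place of -0.35 in testis minus ovary, 0.10 in place of 0.30 in ovary minus female liver, 0.08 in place of 0.22 in ovary minus female kidney, and -0.04 in place of -0.30 in testis minus male hypothalamus. In the last, Fshr and Inhbb by 1426859_at then passed. Amh in testis minus ovary was -4.21 with 0.25 times the pseudocount, and in testis minus male kidney 4 times the pseudocount put Amhr2 (2.45) below Inha (2.72), the other way round from the main setting. Signal near the background limits Amh in testis and in the tissues outside the gonads, and no difference among those was tested for it.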
